A study of Mus musculus with 16 samples.

Results

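The interleukins and interleukin receptors examined here were the 85 genes, of 22609 in the deposited count files, whose symbol begins with Il followed by a digit. By their textbook roles 38 are ligands, 39 are receptor chains, 7 are antagonists, decoys or binding proteins, and 1, Il4i1, is an enzyme. RNA sequencing was done on cells sorted from lumbar dorsal root ganglia, where the sensory neurons of the hind limb have their cell bodies. All 16 libraries came from male mice of 8 to 16 weeks with floxed alleles of Ltbr, the lymphotoxin-beta receptor gene, and the cells sorted were those that had taken up a fluorescent wheat germ agglutinin injected into the paw. The 4 groups of 4 libraries were PTX fl/fl and vehicle fl/fl, with the floxed alleles alone, and PTX CKO and vehicle CKO, which also carried Nav1.8-cre, a recombinase driven by the promoter of the nociceptor sodium channel gene Scn10a, so that deletion is limited to cells with that promoter active. PTX is paclitaxel, a microtubule-stabilising chemotherapy drug that can cause painful neuropathy. It was given 3 times, 2 days apart, at 6 mg per kg, the tracer followed 16 days after the last dose and the ganglia were taken at 18 days. The vehicle label is water. The design text gives 3 samples a group, while the labels hold 4, and nothing in them ties a library to a mouse, so the spread between libraries may be partly technical. Each sample title carries a date whose meaning the labels do not give, and PTX and vehicle libraries share no date: in each group replicates 1 and 2 carry the earlier and replicates 3 and 4 the later of that treatment's 2 dates. A PTX difference and a difference between those dates cannot be told apart.

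Interleukins are secreted signals, made by leukocytes and by many tissue cells, that act through receptors built from a ligand-binding chain and a shared signalling chain. IL-1 family ligands signal through Toll-domain receptors to NF-kB, and IL-1 itself is held back by the antagonist Il1rn and the decoy receptor Il1r2. By contrast, IL-6 family ligands signal through Il6st (gp130) to JAK kinases and STAT3. In the dorsal root ganglion IL-1 beta and IL-6 are known to sensitise nociceptors, and Il31ra with its partner Osmr marks neurons that respond to the itch cytokine IL-31. Levels are given as CPM, the count scaled to the library's TMM-adjusted total, and errors as SD over the 4 libraries of a group.

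The genes assigned 7906504 to 11668007 counts per library. Of the 85 members, 20 had no count in any library, among them Il17a, Il17f, Il22, Il3, Il5, Il9, Il31 and Il23r, which over all 16 libraries allows up to 0.0189 CPM (3 counts, counting error only). A further 19 had counts but did not pass the filter on low counts, and 46 were tested: 17 ligands, 26 receptor chains and 3 antagonists. Ltbr itself checks the genotype label. Its levels in replicates 1 to 4 were 6.06, 8.61, 12.2 and 15.6 CPM in PTX fl/fl, 23.3, 5.88, 19.5 and 28.4 in PTX CKO, 42.4, 51.4, 48.3 and 46.8 in vehicle fl/fl and 99.0, 54.3, 33.1 and 32.3 in vehicle CKO. Ltbr was thus not lower in the libraries labelled CKO (log2 difference 0.86 ± 0.51 SE under PTX and 0.21 ± 0.50 under vehicle, edgeR adjusted p 1 for both), and the genotype comparisons below rest on the labels alone. Its counts cover all sorted cells, with or without the recombinase, and all exons, and which exons are floxed is not given in the sources used here. The sorted cells held more than neurons. Sensory neuron markers summed to 7640–20100 CPM in PTX and 1010–6290 CPM in vehicle libraries, and satellite glia markers to 4580 CPM or more in each. The 12 neutrophil markers, none of them at 0 in any library, summed to 271–10000 CPM on the earlier PTX date, 51500–118000 on the later PTX date and 72000–231000 after vehicle.

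Genes of the IL-1 system had the highest group means among the members. Il1b, which encodes IL-1 beta, the inflammatory cytokine released after inflammasome cleavage, came first. Per kilobase of merged exon (GENCODE M21 lengths) its level was 909 ± 426 CPM per kb in vehicle fl/fl, 1180 ± 572 in vehicle CKO, 452 ± 461 in PTX fl/fl and 333 ± 387 in PTX CKO. Next came Il1r2, the decoy that binds IL-1 without signalling, with 859 ± 529, 1030 ± 575, 224 ± 216 and 210 ± 242 CPM per kb in the same order. Il1f9, the IL-36 gamma gene, reached 123 ± 88.0 and 139 ± 65.1 CPM per kb in the vehicle groups, and Il1rn, the IL-1 receptor antagonist, 116 ± 58.6 and 109 ± 48.9. The signalling receptor for IL-1, Il1r1, was by contrast a low gene, with group means of 1.71 to 4.77 CPM. Among signalling receptor chains the highest was Il10rb, the chain shared by the receptors of IL-10, IL-22 and the lambda interferons, at 91.9 ± 24.0 CPM per kb in vehicle fl/fl, 78.1 ± 40.9 in vehicle CKO, 74.1 ± 4.27 in PTX fl/fl and 59.3 ± 9.74 in PTX CKO. Its reads may include those of Gm21970, whose exons overlap on the same strand. The group means mix libraries of unlike kind. In the 4 PTX libraries with the earlier title date Il1b was at 1.02–73.7 and Il1r2 at 1.18–45.5 CPM per kb, beside 66.8–78.1 for Il10rb.

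The clearest pattern among the members was a split between the 2 title dates of the PTX libraries. Promoters are shown for 3 members that moved together in that split: Il1b as the most abundant ligand, Il6 as the ligand that signals through gp130, and Il18rap, the accessory chain of the IL-18 receptor, as the receptor chain with the highest fold between the dates. Each line holds the 250 bases before the first RefSeq start in build GRCm38.p6 (the submitters' counts are on mm9), 5′ to 3′ on the gene's strand. Capitals mark matches, on either strand, to TTNCNNAA (C/EBP), GGANTTTCC (NF-kB) or GAGGAAGT (PU.1), motifs of factors known for myeloid cytokine genes.
Il1b, chr2:129371140-129371389, minus strand: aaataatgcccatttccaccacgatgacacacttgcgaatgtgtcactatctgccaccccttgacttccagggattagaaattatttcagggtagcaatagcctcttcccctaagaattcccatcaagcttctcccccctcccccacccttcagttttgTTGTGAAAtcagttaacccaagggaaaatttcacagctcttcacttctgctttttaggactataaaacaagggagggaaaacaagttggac
Il6, chr5:30012864-30013113, plus strand: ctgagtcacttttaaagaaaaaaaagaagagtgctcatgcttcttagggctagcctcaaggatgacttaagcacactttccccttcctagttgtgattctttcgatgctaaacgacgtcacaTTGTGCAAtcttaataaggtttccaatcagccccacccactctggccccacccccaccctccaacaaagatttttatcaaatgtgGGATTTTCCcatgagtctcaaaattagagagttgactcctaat
Il18rap, chr1:40515112-40515361, plus strand: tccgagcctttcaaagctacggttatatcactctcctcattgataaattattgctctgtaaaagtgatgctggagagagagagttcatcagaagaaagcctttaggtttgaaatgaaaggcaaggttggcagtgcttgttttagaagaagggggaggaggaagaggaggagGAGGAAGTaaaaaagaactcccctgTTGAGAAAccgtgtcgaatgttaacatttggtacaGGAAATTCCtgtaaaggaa
The windows of Il1b, Il6 and Il18rap each hold a C/EBP match, those of Il6 and Il18rap also an NF-kB match, and that of Il18rap a PU.1 match. Of the 15 members that differed between the PTX dates, 12 had a promoter entry, and 6 of these 12 (50.0%) held the C/EBP letters, against 7 of 23 other tested members (30.4%) and 36.9% of all 27025 promoters. The NF-kB letters were in 2 of the 12, 0 of the 23 and 1.05% of all promoters, and a longer 10-letter form of that motif, which was searched first, in 1 of the 12, 1 of the 23 and 1.4% of all promoters. The shorter form was taken up after those values were seen. The PU.1 letters were in 1 of the 12, 0 of the 23 and 2.44% of all promoters. A match is a description of letters and no evidence of binding.

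Between the PTX dates, 15 of 46 tested members were higher on the later date and 0 were lower by edgeR's quasi-likelihood test with Benjamini-Hochberg adjustment over 14200 genes. Of all genes tested, 8.93% were called, 7.13% higher and 1.8% lower, and the median log2 difference was 2.15 over the members and -0.16 over all genes. The comparison was chosen after the data were seen. By role the 15 were 6 ligands (Il1a, Il1b, Il1f9, Il6, Il15, Il16), the 2 IL-1 inhibitors Il1rn and Il1r2, and 7 receptor chains (Il1rap, Il18rap, Il2rg, Il6ra, Il10ra, Il17ra, Il28ra). Between the vehicle dates no member was called, with 0.162% of genes called, and the members' median was -0.07. For 14 of the 15, all but Il10ra, the date difference under PTX also exceeded that under vehicle by the edgeR test of the difference itself (8.06% of genes called, 5.66% in that direction and 2.39% in the other).

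**Figure D1:**
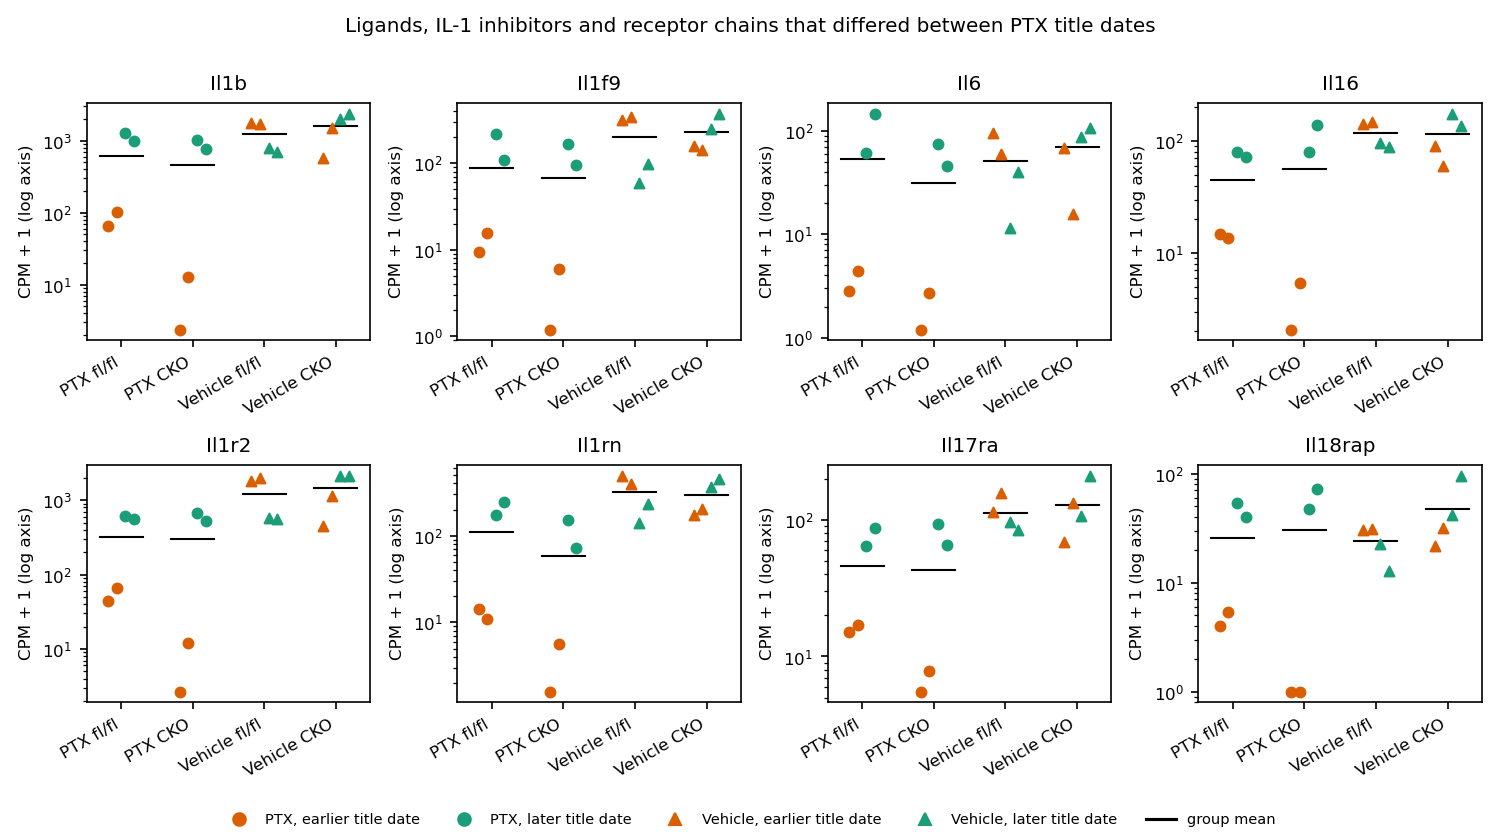
Levels of 8 members in each library, as CPM + 1 on a log axis, by group, with colour for the title date within a treatment and a line at the group mean. The earlier PTX libraries of Il1b lie between 1.38 and 99.9 CPM and the later ones between 770 and 1290, beside vehicle libraries of 576 to 2370.

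Among the ligands, Il1b measured 64.6 and 99.9 CPM in the earlier and 1290 and 993 CPM in the later PTX fl/fl libraries. In PTX CKO it measured 1.38 and 11.8 CPM on the earlier and 1020 and 770 CPM on the later date. All 4 later libraries lay above all 4 earlier ones in both genotypes. The share of all genes whose PTX dates separate in this way, here and for the members below, was not counted. Vehicle levels were 1780, 1690, 782 and 686 CPM in fl/fl and 576, 1480, 1990 and 2370 in CKO, so the later PTX libraries overlapped vehicle and the earlier ones did not. The log2 difference between PTX dates was 5.44 ± 0.54 (edgeR adjusted p = 1.66e-05). Il6, the gp130 ligand induced in many inflamed tissues, behaved alike. It measured 1.83, 3.43, 60.4 and 147 CPM in PTX fl/fl and 0.197, 1.71, 74.6 and 44.5 in PTX CKO, replicates 1 to 4. The dates again did not overlap, with a log2 difference of 5.62 ± 0.77 (edgeR adjusted p = 0.000268). Il1f9 ranged over 0.197–14.8 CPM on the earlier and 94.9–218 CPM on the later PTX date, and Il16, a chemoattractant that binds CD4, over 1.08–13.9 and 70.1–138 CPM. Il15, the trans-presented growth factor of NK and memory T cells, measured 2.49, 1.49, 42.2 and 30.3 CPM in PTX fl/fl and 0, 0.475, 34.1 and 28.2 in PTX CKO. Il1a, the intracellular alarmin of the family, ranged over 0–1.58 CPM on the earlier and 2.17–37.5 CPM on the later date. The Il16 reads may include those of Stard5, whose exons overlap on the opposite strand, since the strand setting of the counting is not given.

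The IL-1 inhibitors moved with the ligand. Il1r2 measured 43.5 and 64.5 against 607 and 559 CPM in PTX fl/fl, and 1.67 and 11.1 against 665 and 516 CPM in PTX CKO, earlier against later (log2 difference 4.98 ± 0.49, edgeR adjusted p = 1.45e-05). Il1rn measured 13.3 and 9.84 against 174 and 242 CPM in PTX fl/fl, and 0.591 and 4.65 against 151 and 70.4 CPM in PTX CKO (4.78 ± 0.50). Neither gene's dates overlapped. Il18bp, which binds IL-18, ranged over 0.0985–2.11 CPM on the earlier and 14.2–36.0 on the later PTX date without passing the test (log2 difference 3.93 ± 1.33, edgeR adjusted p = 0.098). DESeq2 and limma-voom called it higher, as did edgeR on the 8 PTX libraries alone, a fit that called Il4 too and lost Il10ra and Il6ra (edgeR adjusted p 0.0637 and 0.0742).

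Of the receptor chains, Il17ra, the common chain of IL-17 receptors, measured 14.1 and 16.1 against 63.4 and 85.4 CPM in PTX fl/fl and 4.53 and 6.83 against 91.8 and 64.2 CPM in PTX CKO (log2 difference 3.04 ± 0.34). Il2rg, the common gamma chain of the IL-2, IL-4, IL-7, IL-15 and IL-21 receptors, ranged over 5.22–9.49 CPM on the earlier and 40.1–104 on the later date (3.11 ± 0.33). Its reads may include those of Gm20489, which overlaps its exons on the same strand. Il18rap measured 2.99 and 4.39 against 52.7 and 39.0 CPM in PTX fl/fl, and 0 and 0 against 46.6 and 71.5 CPM in PTX CKO. Its libraries also separated by date, but its fitted log2 difference of 7.91 ± 0.68, like the 7.09 ± 0.91 of the lambda interferon receptor chain Il28ra, rests on CKO libraries at 0 and depends on the prior count. Il1rap, the accessory chain of the IL-1 and IL-33 receptors, had 5.23 and 2.81 against 47.7 and 29.3 CPM in PTX fl/fl and 17.1 and 3.99 against 39.9 and 101 CPM in PTX CKO. Il10ra and Il6ra, the specific chains of the IL-10 and IL-6 receptors, lost their calls under more alternatives than the other receptor chains. Il6ra in PTX fl/fl measured 1.33, 4.22, 25.2 and 1.83 CPM, so its dates overlapped in fl/fl.

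Within each genotype label alone the test called 11 members higher in fl/fl (3.19% of genes) and 14 in CKO (4.97%). Il1a, Il6ra, Il10ra and Il28ra were not called in fl/fl alone, nor was Il10ra in CKO alone. Leaving out single libraries ended the call of Il10ra (without PTX fl/fl replicate 1, 2 or 3 or PTX CKO replicate 4, adjusted p 0.0513–0.115), of Il1a (without PTX fl/fl replicate 1 or 2 or PTX CKO replicate 2, 0.061–0.0651) and of Il6ra (without PTX fl/fl replicate 1, 0.0535). Without PTX CKO replicate 2 the log2 difference rose for Il1b to 6.56, Il6 to 6.72, Il15 to 7.72, Il1f9 to 6.54, Il1r2 to 5.94, Il1rn to 5.84, Il16 to 4.56, Il10ra to 7.42 and Il6ra to 6.79. Without PTX CKO replicate 1 it rose for Il1rap to 3.69 and Il1a to 7.03, whereas Il1a fell to 4.63 without PTX CKO replicate 4 and to 5.15 without PTX fl/fl replicate 4, and Il6ra to 2.95 without PTX fl/fl replicate 3.

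**Figure D2:**
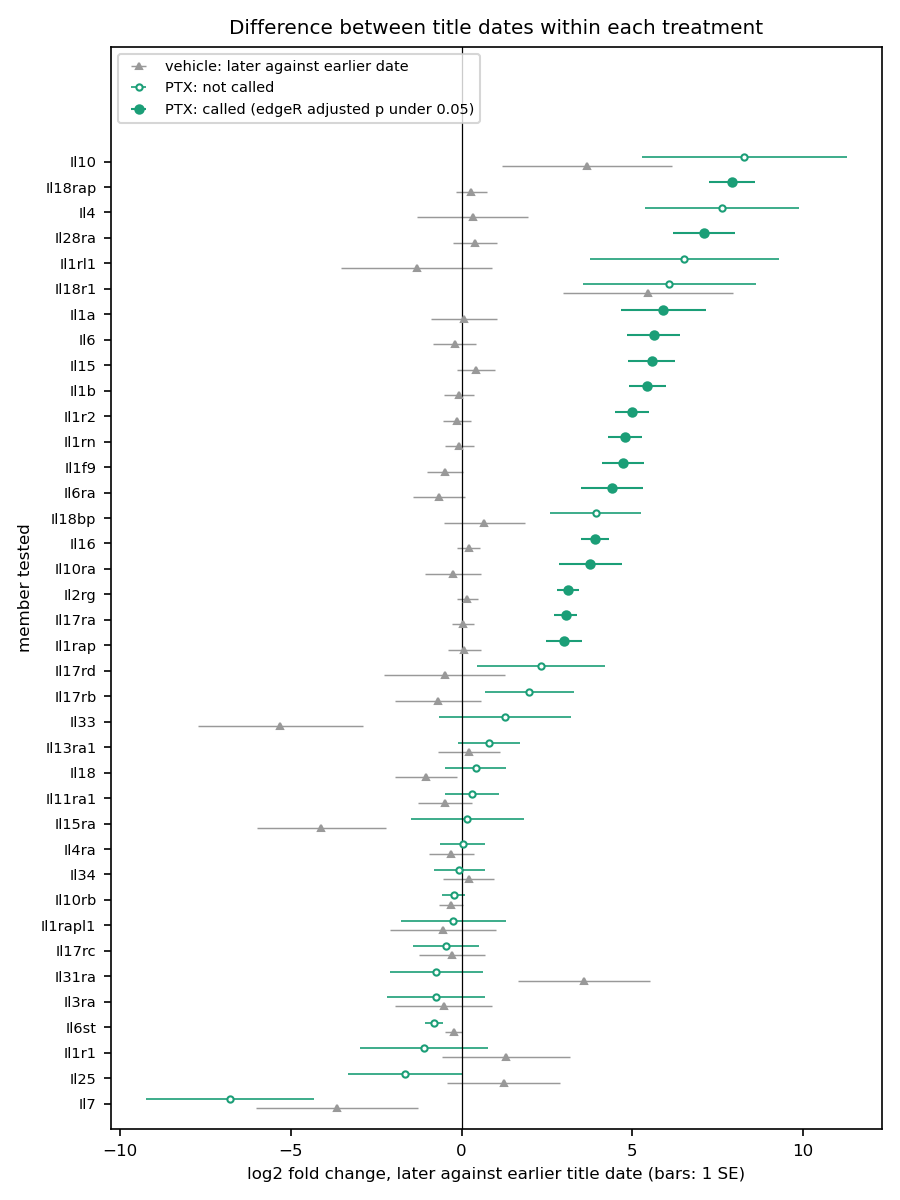
Log2 fold change between title dates (later against earlier, bars 1 SE) under PTX (circles, filled where called) and under vehicle (triangles) for 38 of the 46 tested members. The other 8, with a standard error of 10 or more in a fit with whole cells at 0, are left out. Every filled circle lies right of 0, between 2.99 and 7.91.

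Genes that lie side by side were not all called between the PTX dates. Il1r2, Il1r1, Il1rl2, Il1rl1, Il18r1 and Il18rap are consecutive in RefSeq order on 1 chromosome, and the outer 2 were called, while Il1rl2 was too low to be tested and the other 3 were not called, with Il1r1 at -1.10 ± 1.88 and Il18r1 at 6.08 ± 2.53 (edgeR adjusted p 0.831 and 0.203). The test thus does not tell Il18r1, a low gene, from its called neighbour.

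Markers of several other cell types moved with these members. Each PTX library on the earlier date had fewer neutrophil marker counts (271–10000 CPM) than each on the later (51500–118000 CPM). The 10 macrophage markers in the files summed to 19.5–55.7 CPM on the earlier and 240–583 CPM on the later PTX date. The 11 lymphocyte markers summed to 0.197–5.81 and 22.2–79.8 CPM with Cd3e, Ncr1 and Ms4a1 each at 0 in 15 of 16 libraries. The 7 mast cell and basophil markers summed to 0.197–9.84 and 73.6–242 CPM. Of these, Mcpt4, Tpsb2 and Cma1 were at 0 in 15, 14 and 12 of 16 libraries, so the sum rests mainly on the rest of the list. Endothelial markers also separated, at 2.26–15.3 and 19.1–29.1 CPM. Sensory neuron markers went the other way, at 14900–20100 and 7640–10700 CPM. The dates overlapped for satellite glia (4580–25100 and 6670–17300 CPM), Schwann cell (1820–2810 and 1520–2450) and fibroblast markers (94.6–277 and 160–428). They also overlapped for itch neuron (175–400 and 22.8–251 CPM) and red cell markers (0.197–1.41 and 0–2.99). Set against the neutrophil markers, Il1b stayed within 5.08–19.3 CPM per 1000 CPM of marker in all 16 libraries (median 9.96) and Il1r2 within 5.61–12.1 (median 8.05). The same ratio was 0.982–5.07 for Il1rn and 0.726–5.38 for Il1f9. In sorted bulk samples fewer cells of a type and less RNA per cell cannot be told apart, and the part of these cells in the date differences was not tested.

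**Figure D3:**
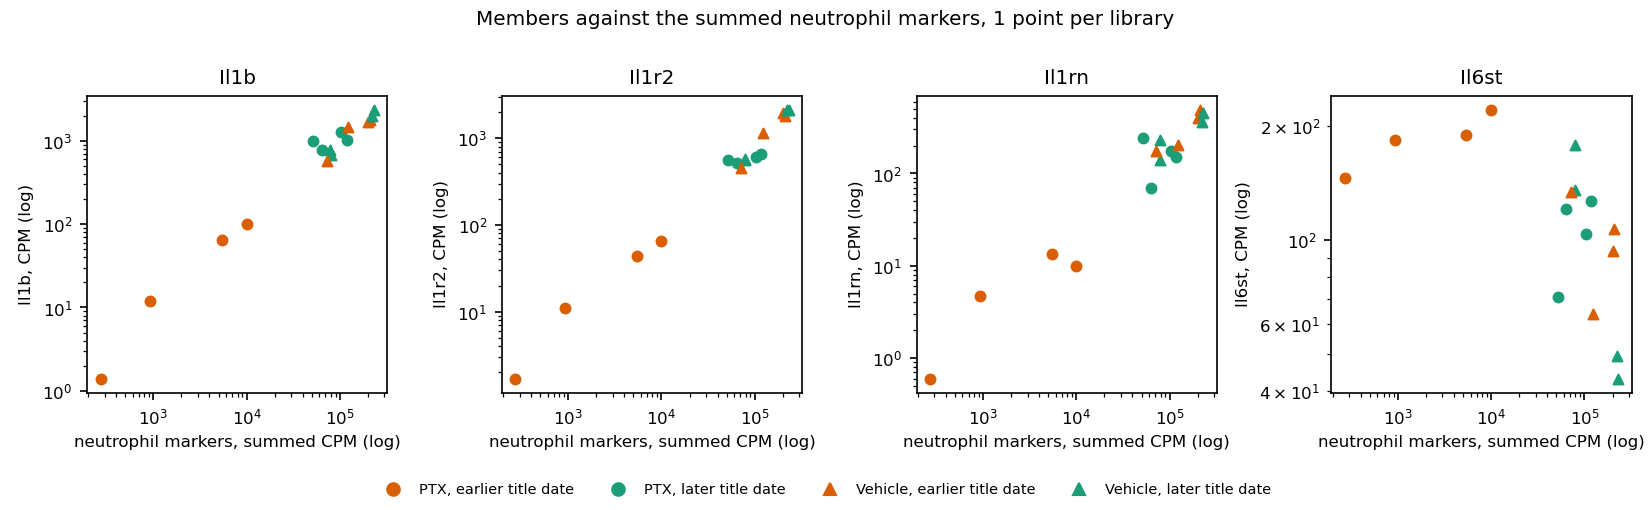
Level of Il1b, Il1r2, Il1rn and Il6st (CPM, log axis) against the summed CPM of 12 neutrophil markers (log axis), 1 point per library. Il1b, Il1r2 and Il1rn are lowest in the 4 earlier PTX libraries, where the markers sum to 271–10000 CPM, while Il6st is there at 146–221 CPM.

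Compared over the study's groups, few members differed. In fl/fl mice 0 of 46 members were called higher after PTX (3.2% of genes) and 1 lower (1.76% of genes, 4.96% in either direction), and in CKO mice 0 higher (2.22%) and 0 lower (0.359%). At an unadjusted p under 0.05 there were 6 members in fl/fl and 7 in CKO, against 19.5% and 19.7% of all genes. The fold changes leaned down: 35 of 46 lay below 0 in fl/fl and 37 of 46 in CKO, with medians of -1.05 and -1.17 beside -0.01 and 0.02 over all genes. The ligands' medians were -1.05 and -1.04 and those of the receptor chains -1.0 and -1.12. Il1b itself differed by -1.01 ± 1.29 in fl/fl and -1.83 ± 1.32 in CKO (edgeR adjusted p 0.724 and 0.478), less than the spread between its libraries. These counts turned on the PTX date: without the later PTX libraries 14 members were lower in fl/fl (7.92% of genes) and 16 in CKO (8.47%), and without the earlier ones 0 in both (0.0204% and 0%). They also turned on the tool, since limma-voom with quality weights called 19 lower in fl/fl and 17 in CKO (18.4% and 10.1% of genes) and DESeq2 2 and 0 (4.76% and 3.13%). Markers of other cells moved with the treatment. Schwann cell markers summed to 1520–2810 CPM after PTX and 5500–8250 CPM after vehicle, fibroblast markers to 94.6–428 and 428–2880 CPM, and satellite glia markers to 4580–25100 and 11500–36500 CPM. Macrophage markers summed to 19.5–583 and 448–2980 CPM and neutrophil markers to 271–118000 and 72000–231000 CPM. Sensory neuron markers, at 7640–20100 and 1010–6290 CPM, and itch neuron markers, at 22.8–400 and 2.69–58.6 CPM, went the other way. The part of all these cells in the fold changes was not tested.

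Set against all vehicle libraries, the 2 PTX dates gave separate pictures. The earlier date had 17 members lower (14.2% of genes) and 3 higher (17.2%), where 31.4% of genes were called in either direction. The later date had 0 lower (1.37%) and 1 higher (5.56%), where 6.92% were called. The 17 were the 15 named above with Il21r and Il4. The 3 higher members were Il31ra, Il6st and Il7, the lymphocyte survival factor, which measured 9.30, 11.4, 16.0 and 8.35 CPM on the earlier date, 1.63, 0, 0 and 0 CPM on the later, and 0 to 0.494 CPM in all vehicle libraries but CKO replicate 1, at 15.1 CPM.

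Il21r, the receptor of the T helper cytokine IL-21, was the member called lower in fl/fl. It had 0 counts in all 4 PTX fl/fl libraries and 41.8, 2.58, 12.4 and 10.3 CPM in vehicle fl/fl. With 3 counts over the 4 PTX libraries as the floor, this is at least 233-fold lower (edgeR adjusted p = 0.0485). In CKO it measured 0, 0, 4.85 and 0 CPM after PTX and 0, 20.1, 27.9 and 43.2 after vehicle, with an overlap at 0. The fl/fl call was lost without any 1 of the 8 fl/fl libraries or without vehicle CKO replicate 2, 3 or 4 (adjusted p 0.0623–0.138), and the CKO difference passed without PTX CKO replicate 3 (0.0497). With the replicate number as a block the fl/fl value was 0.0868. Lymphocyte markers summed to 4.13–28.2 CPM in PTX fl/fl and 17.8–68.7 CPM in vehicle fl/fl, and their part was not tested. Its ligand Il21 had 9 counts in all 16 libraries. Il4ra, the chain shared by the IL-4 and IL-13 receptors and the RefSeq neighbour of Il21r, went the other way, at 85.2, 91.4, 76.6 and 101 CPM in PTX fl/fl against 67.8, 40.0, 3.29 and 56.6 in vehicle fl/fl. These groups did not overlap, yet the log2 difference of 1.08 ± 0.61 missed the threshold (edgeR adjusted p = 0.356), and in CKO it was 0.52 ± 0.60.

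Groups did not overlap for 1 member higher (Il4ra, 11% of genes) and 6 lower (Il13ra1, Il16, Il1rapl1, Il21r, Il28ra, Il34; 7.8% of genes) in fl/fl, and for 1 higher (Il31ra, 8.91%) and 3 lower (Il1rn, Il2rg, Il6ra; 4.54%) in CKO. Il34, a ligand of the CSF1 receptor made by neurons, kept a narrow range after PTX. It measured 9.80, 10.4, 8.99 and 12.4 CPM in PTX fl/fl and 12.6, 46.5, 36.2 and 47.4 in vehicle fl/fl (log2 difference -1.78 ± 0.69, edgeR adjusted p = 0.159), and both DESeq2 (-1.83, adjusted p = 0.0385) and limma-voom (-1.75, 0.00312) called it lower. In CKO it measured 19.1, 14.1, 11.4 and 16.9 CPM after PTX and 6.51, 20.4, 1.92 and 22.9 after vehicle, where the groups overlapped.

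The itch receptor chain Il31ra was more abundant on average after PTX in both genotypes. It measured 49.7, 13.4, 90.6 and 0 CPM in PTX fl/fl and 12.6, 5.31, 3.61 and 0.835 in PTX CKO. Vehicle libraries had 0, 0, 6.18 and 2.00 CPM in fl/fl and 0.337, 0.221, 0.128 and 0.104 in CKO. PTX CKO lay wholly above vehicle CKO, while in fl/fl the PTX library at 0 overlapped vehicle. The log2 differences of 4.22 ± 1.72 in fl/fl and 4.74 ± 1.82 in CKO did not pass edgeR (adjusted p 0.181 and 0.164) and passed DESeq2 (0.0474 and 0.0349). Against vehicle, both PTX dates passed in the date model (6.33 ± 1.35 on the earlier and 5.59 ± 1.33 on the later date, edgeR adjusted p 0.00386 and 0.0271). Of the later PTX libraries, however, only PTX fl/fl replicate 3, at 90.6 CPM, lay above the highest vehicle library, at 6.18 CPM. The others, at 0, 3.61 and 0.835 CPM, lay within the vehicle range. Of the earlier PTX libraries, PTX CKO replicate 2, at 5.31 CPM, also lay within that range. The difference between the PTX dates turned on PTX fl/fl replicate 3, at -0.74 ± 1.37 with it and -6.65 without it (edgeR adjusted p 0.846 and 0.0436). The 7 itch neuron markers, Osmr included, summed to 175–400 CPM on the earlier and 22.8–251 CPM on the later PTX date and to 2.69–58.6 CPM after vehicle. Without Osmr the other 6 summed to 62.9–160, 0–65.2 and 0.117–38.6 CPM, so the later PTX libraries overlapped vehicle on both sums and the earlier ones on neither, with Sst and Hrh1 at 0 in 10 libraries each and Nppb in 7. Their part in the Il31ra difference was not tested. Il31 itself had no count.

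Il6st, the gp130 chain through which IL-6, IL-11, LIF and oncostatin M signal and the RefSeq neighbour of Il31ra, was present in every library. It measured 190, 221, 104 and 70.6 CPM in PTX fl/fl, 146, 184, 127 and 121 in PTX CKO, 107, 93.9, 178 and 136 in vehicle fl/fl and 134, 63.9, 49.6 and 43.0 in vehicle CKO. The earlier PTX libraries were 4 of the 5 highest, with vehicle fl/fl replicate 3. PTX differed from vehicle by 0.19 ± 0.40 in fl/fl and 0.99 ± 0.40 in CKO (edgeR adjusted p 0.856 and 0.184), and the earlier PTX date from vehicle by 1.00 ± 0.21 (0.00331).

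**Figure D4:**
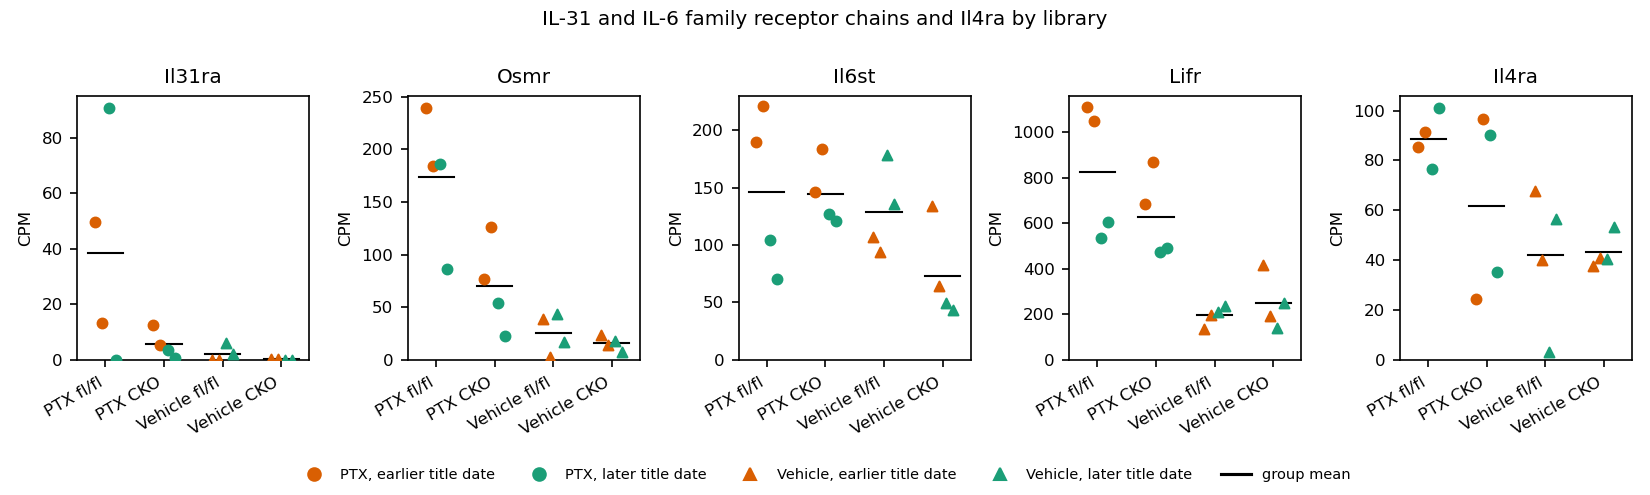
Levels in CPM of Il31ra, Il6st and Il4ra and of the non-member chains Osmr and Lifr in each library, with colour for the title date within a treatment and a line at the group mean. PTX libraries of Lifr lie at 473–1110 CPM and vehicle libraries at 137–418 CPM.

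The partners of these chains that the name rule leaves out were taken from lists of pathway genes. Of 7 tested IL-6 family partners, Lifr and Osmr, the LIF and oncostatin M receptor chains, rose after PTX in fl/fl, where 3.2% of all genes were called higher and 1.76% lower. Lifr measured 1110, 1050, 537 and 604 CPM in PTX fl/fl and 137, 199, 212 and 236 in vehicle fl/fl (2.07 ± 0.36, edgeR adjusted p = 0.00732). Osmr measured 239, 184, 186 and 86.6 CPM against 39.0, 2.58, 44.0 and 16.6 (2.77 ± 0.69, edgeR adjusted p = 0.0305). In both genes the fl/fl groups did not overlap. In CKO Lifr measured 684, 869, 473 and 491 CPM after PTX and 418, 192, 139 and 250 after vehicle, again without overlap, and Osmr 77.1, 126, 53.8 and 22.8 against 23.8, 14.2, 17.9 and 7.09 CPM. Their CKO differences of 1.33 ± 0.35 and 2.15 ± 0.68 missed edgeR's threshold (adjusted p 0.0536 and 0.0936) and passed DESeq2 (0.0142 and 0.0276) and limma-voom (0.00593 and 0.0406). Lifr in CKO also passed edgeR without PTX CKO replicate 3 or vehicle CKO replicate 1 (0.0455 and 0.0325), and Osmr without vehicle fl/fl replicate 2 (0.036). The genotype by PTX interaction was -0.74 ± 0.49 for Lifr and -0.61 ± 0.92 for Osmr (edgeR adjusted p 1 for both). Of 25 JAK, STAT and SOCS genes 2 rose, Stat3, the main transducer of gp130, by 1.00 ± 0.24 and Stat2, of interferon signalling, by 2.03 ± 0.44. Of 15 IL-1 and Toll-domain signalling genes tested 1 rose, Tollip, an inhibitory adaptor, by 1.14 ± 0.30, and of 6 IL-17 signalling genes 1 fell, Cebpd, a C/EBP factor, by 1.8 ± 0.46 on the log2 scale. None of 9 other shared chains tested was called, and edgeR called no gene of these lists after PTX in CKO or between genotypes. Except for Lifr, these calls were lost when single libraries were left out: Osmr without PTX fl/fl replicate 1, 2 or 3 or vehicle fl/fl replicate 1 or 4 (adjusted p 0.0512–0.0981), Stat2 without PTX fl/fl replicate 1 or 2 or vehicle fl/fl replicate 1 (0.054–0.06), Stat3 without PTX fl/fl replicate 1 or 2 or vehicle fl/fl replicate 1, 3 or 4 (0.0639–0.0835), Cebpd without PTX fl/fl replicate 1 or 2 or any vehicle fl/fl library (0.0569–0.121) and Tollip without 10 of the 16 libraries (0.0501–0.12). Stat3 was also lost with the replicate block (0.0576) and with the compared groups alone (0.0641), Osmr and Cebpd with the compared groups alone (0.0785 and 0.0817), and Tollip with RLE (0.0502) or upper-quartile scaling (0.0645) and the replicate block (0.0667). Without the earlier PTX libraries none of the 6 was called, Lifr included (1.5, edgeR adjusted p = 0.208). There 0.0068% of all genes were called higher and 0.0204% lower. None was called without the earlier vehicle libraries, Lifr again included (1.72, edgeR adjusted p = 0.0759), where the shares were 0.128% and 0.189%. With so few calls over all genes, these losses do not set the 6 apart. Without the later vehicle libraries (4.07% and 0.577%) Osmr, Stat3, Tollip and Cebpd lost their calls (edgeR adjusted p 0.0966–0.147). Lifr and Stat2 kept theirs. Sensory neuron markers were higher in every PTX library (7640 CPM or more) than in any vehicle library (6290 CPM or less), and their part in these differences was not tested.

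Receptors and ligands changed their balance with the PTX date. The 38 ligands summed to 59.7–170 CPM on the earlier PTX date, 1150–1740 CPM on the later and 1020–3210 CPM after vehicle. The 39 receptor chains summed to 419–570, 610–878 and 693–1220 CPM. The receptor sum was thus 3.36 to 8.39 times the ligand sum on the earlier PTX date, and 0.425 to 0.766 times on the later date and 0.338 to 0.937 times after vehicle. Summed per kilobase the ratios were 1.34 to 3.76, 0.201 to 0.313 and 0.145 to 0.448. The antagonists and binding proteins summed to 2.36–76.5, 601–838 and 653–2600 CPM. The decoy receptor Il1r2, with means of 1220 CPM in vehicle fl/fl and 1460 in vehicle CKO, was counted there and not with the receptor chains. Mean sums in those groups were 885 and 939 CPM for receptor chains and 1780 and 2150 CPM for ligands. With Il1r2 among the receptor chains their mean would exceed that of the ligands after vehicle, so the ratios depend on this choice. Single genes carried these sums. Il1b made up 56.2–81.5% of the ligand sum in vehicle libraries, 67.2–74.6% on the later and 1.94–58.8% on the earlier PTX date, and Il6st 33.3–38.8% of the receptor sum on the earlier PTX date. By group the mean log2 ratio of receptors to ligands was 0.42 ± 1.8 in PTX fl/fl, 1.12 ± 1.98 in PTX CKO, -0.90 ± 0.46 in vehicle fl/fl and -1.10 ± 0.68 in vehicle CKO. Without Il1b and Il10rb, the most abundant ligand and receptor chain over all libraries, the vehicle means turned to 0.49 and 0.58. The ratios were then 4.21 to 7.88 on the earlier PTX date, 1.1 to 2.1 on the later and 1.09 to 1.93 after vehicle. Il6st was kept in these receptor sums. No test was made on these sums.

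**Figure D5:**
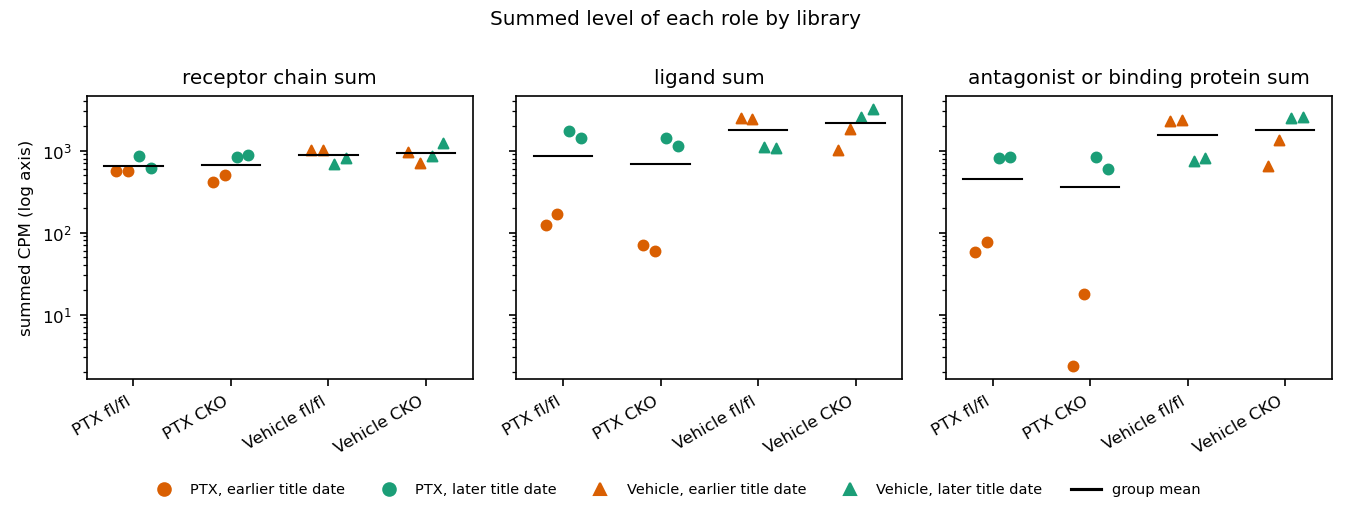
Summed CPM (log axis) of the 39 receptor chains, 38 ligands and 7 antagonists or binding proteins in each library, with a line at the group mean. Ligand sums are 59.7–170 CPM in the 4 earlier PTX libraries and 1020 CPM or more in the other 12, while receptor sums stay within 419–1220 CPM. The decoy receptor Il1r2 is counted among the antagonists and not in the receptor sums.

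Between the genotype labels no member was called. Under PTX 0 of 46 passed edgeR (0% of genes), 2 had an unadjusted p under 0.05 (Il5ra and Il21r, 1.87% of genes), and neither DESeq2 nor limma-voom called any. Under vehicle 0 passed edgeR (0.0211% of genes) and 4 had an unadjusted p under 0.05 (Il5ra, Il12a, Il17d and Il34, 4.61% of genes). DESeq2 called Il12a higher there (0.155% of genes higher, 0.43% lower) and limma-voom called none. For the genotype by PTX interaction 0 passed edgeR (0.00704% of genes) and 3 had an unadjusted p under 0.05 (Il5ra, Il17d and Il34, 3.35% of genes). DESeq2 called Il12a lower (0.127% of genes lower, 0.225% higher) and limma-voom called none. Il12a, the p35 subunit of IL-12, had 0 counts in vehicle fl/fl and 12.1, 1.88, 8.82 and 4.17 CPM in vehicle CKO, at least 92.3-fold higher over the floor of 3 counts, and it was the 1 member of that comparison whose groups did not overlap (0.81% of genes higher). Under PTX it measured 0, 0.527, 0 and 0 CPM in fl/fl and 0, 0, 8.04 and 0 in CKO. Il17d, an IL-17 family ligand, showed the reverse under vehicle, with 5.03, 0, 1.65 and 3.66 CPM in fl/fl and 0 counts in CKO. Il5ra, the IL-5 receptor chain of eosinophils and basophils, had 0 counts in PTX CKO and vehicle fl/fl, 0, 0.176, 6.43 and 5.28 CPM in PTX fl/fl and 1.68, 0, 0 and 19.1 CPM in vehicle CKO. The libraries of these low genes thus varied within a group over most of their range. Under PTX the groups did not overlap for Il10rb alone (1.37% of genes lower), with 144, 136, 141 and 127 CPM in fl/fl and 125, 124, 102 and 87.8 in CKO, a log2 difference of -0.32 ± 0.34 (edgeR adjusted p 1).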

How the data were processed

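RNA was measured in 16 libraries, 4 in each of 4 groups of genotype and treatment taken from the sample titles. Stranded poly(A) libraries were read as single ends, per the labels' protocols. Base calls were converted with bcl2fastq, reads aligned to mm9 with TopHat2 and counted per gene with HTSeq, per the submitters' processing notes. Versions, gene annotation and the strand setting of the counting are not given in the sources used here, so reads of overlapping genes may be shared. The files as deposited hold raw counts of the authors, not normalized. Of all alignments 32.88 to 43.48% were assigned to genes, 13.73 to 25.39% fell on no feature and 39.54 to 44.18% were not unique, and these summary lines were left out. Genes with close copies, such as Il11ra1, are uncertain. No 2 libraries of a group were duplicates (lowest chi-square per degree of freedom 20.3 over 24 pairs). Intervals and floors cover counting error only.

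Counts were filtered with filterByExpr (14200 of 22609 genes kept), scaled (TMM) and tested in edgeR 4.0.16 under R 4.3.3 (robust quasi-likelihood F test, all 16 libraries, 12 residual degrees of freedom, biological coefficient of variation 0.939), two-sided, Benjamini-Hochberg adjusted across the 14200 genes, threshold 0.05. The model of title date within genotype and treatment (8 residual degrees of freedom) was added after the data were seen. In edgeR the comparisons of PTX with vehicle in fl/fl and of the PTX dates were also run on simulated counts. There 200 genes with a mean of at least 5 CPM were changed. The other comparisons and the other tools were not simulated. Alternatives were other scalings (RLE, upper quartile), other filters, the compared groups alone, blocks for replicate number or title date, leaving out a date or a library, DESeq2 1.42.0 and limma-voom (limma 3.58.1) with quality weights. The members and gene lists were chosen with earlier results of these data known. Named members were those called, those with a group mean of at least 5 CPM, and the 2 highest of each role and family, with called pathway genes and Ltbr, and the less abundant are given as counts. Libraries with the same replicate number deviated together only for CKO against fl/fl under PTX (correlations 0.43, 0.48, 0.47 and 0.23), where libraries of the same number also share a title date, and a replicate block left that comparison at 0 members, as did a block for the date. Gene lengths are GENCODE M21, promoters RefSeq GRCm38.p6 (35 of 46 tested members matched). A planned search for a receptor motif in protein sequences was not run.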

Additional observations from a re-analysis of the deposited data

Results flagged for a closer look

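Among the 46 tested members, 177 groups of 4 libraries had values that differed. Of these, 28 had 1 library set apart from the other 3 by Dixon's criterion. Chance gives about 1 in 20 for normally distributed values, a rate that does not carry over to the sparse counts of low genes. In 12 of the 28 the other 3 libraries were all at 0, a pattern that always meets the criterion. Values below are in CPM. In PTX CKO, 7 of the 9 were in replicate 3: Il17rd at 12.3, Il12a at 8.04, Il21r at 4.85, Il1rl1 at 4.23, Il12rb1 at 3.09, Il18r1 at 2.89 and Il2rb at 1.34, beside 0 to 0.759 in the others. Il1a had 23.1 in PTX CKO replicate 4, beside 0 to 2.17, and Il25 10.8 in replicate 1, beside 2.03 to 2.99. In PTX fl/fl, Il6ra had 25.2, Il18r1 7.46 and Il33 5.51 in replicate 3, beside at most 4.22, 0.166 and 0.352. Il10 had 14.6 in replicate 4, beside at most 0.919, and Il12b 1.32, Il2rb 0.703 and Il12a 0.527 in replicate 2, beside at most 0.204. In vehicle fl/fl, Il13ra1 had 69.3 in replicate 2, beside 35.7 to 41.1, and Il12rb1 5.97 and Il2rb 2.93 in the same library, beside at most 0.915. Il4 had 21.3 in replicate 1, beside 3.16 to 5.27, Il10 had 10.5 in replicate 4, beside 0, and Il17rb was low at 3.38 in replicate 3, beside 6.24 to 6.66. In vehicle CKO, replicate 1 had Il15ra at 32.1, Il7 at 15.1, Il1rl1 at 14.6 and Il12b at 5.39, beside at most 1.25. Il5ra had 19.1 in replicate 4, beside 0 to 1.68, and Il27 4.99 in replicate 3, beside at most 0.112.

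For 14 members the difference between title dates under PTX exceeded that under vehicle by edgeR's test of the difference (adjusted p under 0.05). On the log2 scale the ligands exceeded it by 5.84 (Il1a), 5.83 (Il6), 5.52 (Il1b), 5.23 (Il1f9), 5.15 (Il15) and 3.70 (Il16). The IL-1 inhibitors exceeded it by 5.13 (Il1r2) and 4.85 (Il1rn), and the receptor chains by 7.63 (Il18rap), 6.70 (Il28ra), 5.07 (Il6ra), 3.00 (Il17ra), 2.94 (Il2rg) and 2.92 (Il1rap). The values of Il18rap and Il28ra rest on libraries at 0 and depend on the prior count.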

How the results depend on the processing

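The count of members higher on the later PTX date ranged from 11 to 18 around 15 over 17 alternatives. Of all genes, 3.19 to 10.3% were called higher in these. Members lower on that date were 1 with upper-quartile scaling (2.32% of genes), 2 with DESeq2 (3.44%) and 2 with limma-voom (5.81%), Il6st and Il7. They were 0 to 2 when single libraries were left out (2 without PTX fl/fl replicate 3, 2.94%). Members lower after PTX in fl/fl, 1 in all, became 0 with the replicate block (0.915% of genes). They were 0 without the earlier PTX (0.0204%), earlier vehicle (0.189%) or later vehicle date (0.577%). They were 14 without the later PTX date (7.92%), 2 with DESeq2 (4.76%), 19 with limma-voom (18.4%) and 0 to 1 without single libraries (0.324–2.35%). In CKO they were 16 without the later PTX date (8.47%) and 17 with limma-voom (10.1%). Without single libraries they were 0 to 1 there (1 without PTX CKO replicate 3, 1.06%). Members higher after PTX were 2 in fl/fl with DESeq2 (Il12a, Il31ra, 5.92% of genes) and 2 with limma-voom (Il4ra, Il7, 18.8%). In CKO they were 1 with DESeq2 (Il31ra, 6.24%) and 1 with limma-voom (Il6st, 8.82%). DESeq2 called 1 member higher in CKO under vehicle (0.155% of genes) and 1 lower for the interaction (0.127%), Il12a in both. It called 1 higher on the later vehicle date (Il31ra, 2.73%). Il6st after PTX in fl/fl, -0.08 to 0.42 without single libraries, turned to -0.60 without the earlier PTX date, -0.27 without the earlier vehicle date and -0.08 without PTX fl/fl replicate 2. Il4ra between PTX dates, -0.39 to 0.68 without single libraries, turned to -0.02 with upper-quartile scaling and to -0.08, -0.31 and -0.39 without PTX fl/fl replicate 4, PTX CKO replicate 1 and PTX CKO replicate 3, and Il31ra to 0.52 in fl/fl alone. Its log2 difference was -6.65 without PTX fl/fl replicate 3. The vehicle ratios of receptors to ligands turned to 0.49 and 0.58 without the most abundant member of each role. The cause of these changes was not tested. Same-numbered libraries did not deviate together in the comparisons other than CKO against fl/fl under PTX (correlations -0.20 to 0.11), and the replicate block changed no other count of members. With 4 libraries a group and a biological coefficient of variation of 0.939, members at a few CPM could pass only with large folds.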
